A study of Mus musculus with 8 samples.

Results

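The Rab family of small GTPases was followed at the RNA level through the maturation of the mouse oocyte and after overexpression of wild-type or mutant BTG4. Members were the genes whose symbol is Rab followed by digits and at most a letter and a digit, listed in all 8 expression tables. There were 44 of them among 15962 genes, and 39 passed the filter on low values, which asked for a TPM (the length-normalized share of a gene's transcripts in its library, scaled to a fixed total) of 1 or more in 2 or more libraries. The 5 that did not pass were Rab27b, Rab30, Rab34, Rab44 and Rab9b, each of which stayed under 1 scaled TPM in at least 7 of the 8 libraries.

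Rab proteins are molecular switches that cycle between a GDP-bound and a GTP-bound form. Exchange factors (GEFs) switch them on, GTPase-activating proteins (GAPs) switch them off, and the active form recruits effectors that tether, move or fuse vesicles on a particular membrane. In the mouse oocyte, Rab11a-positive vesicles are known for their part in moving the spindle along actin to the cortex, and Rab3a and Rab27a for their part in the exocytosis of cortical granules.

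The series held 4 groups of 2 libraries, each library made from 15 oocytes of ICR mice without their zona pellucida. The GV group (fully grown, arrested in meiotic prophase) and the MII group (arrested at the second meiotic metaphase) were uninjected wild-type oocytes. By the study's account, both of these groups were also taken from oocytes cultured in vitro. The libraries labelled Btg4wt and Btg4tm came from MII oocytes that had matured in culture after injection of Myc-tagged Btg4 cRNA, either wild-type or with alanine in place of 3 phosphorylated residues. BTG4 is an adaptor that brings the CCR4-NOT deadenylase to maternal mRNAs. Both injected groups were wild-type at Btg4 itself, so endogenous protein was not removed by design, although by the study's account either injection may lower its amount. The labels give no age for the females.

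Btg4 RNA stood at 2722 ± 102 scaled TPM in GV, 5897 ± 149 in MII, 5344 ± 235 in Btg4wt and 3897 ± 243 in Btg4tm oocytes (mean ± SD, n = 2). The values do not separate injected from endogenous RNA, and Btg4wt was not above MII (log2 fold change -0.14, adjusted p = 0.62 by limma), so they give no check of the injection. Depth is unknown, since the tables hold TPM. Replicates correlated with Pearson's r of 0.982 to 0.987 across genes. All 14 oocyte markers were present, with sums of 40673 to 52681 scaled TPM. Of 20 cumulus and granulosa cell markers, 9 were listed in all 8 tables. Their sums were 271 to 276 in GV, 608 to 612 in MII, 471 to 535 in Btg4wt and 389 to 400 in Btg4tm libraries, and Serpine2 made up most of each sum. Cyp19a1 (15.7 to 26.8), Nr5a2 (8.97 to 20.9) and Kitl (2.05 to 5.86) were present in all 8 libraries, and each was higher in both MII than in both GV libraries. Inha (0 to 9.83), Col4a1 (0.538 to 1.36) and Gja1 (0.0293 to 0.696) were lower in both MII than in both GV libraries. Lhcgr, a defining marker of mural granulosa cells, was under 0.31 and Ptgs2 under 0.61 throughout. The part of these markers in the results below was not tested.

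Rab RNAs were unevenly abundant. The family summed to 2618 and 2429 scaled TPM in GV, 2810 and 2833 in MII, 2799 and 2999 in Btg4wt and 3172 and 3144 in Btg4tm libraries. Scaled TPM are TPM divided by a library factor between 0.948 and 1.11, the median of ratios to the mean library. Of these sums, 60.6% to 66.4% belonged to 5 RNAs: Rab7 (late endosome and lysosome), Rab11a (recycling endosome), Rab38 (lysosome-related organelles), Rab2a and Rab1b (traffic between endoplasmic reticulum and Golgi).

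Rab7 was the most abundant over the 8 libraries, at 594 and 502 scaled TPM in GV, 457 and 460.3 in MII, 439 and 422 in Btg4wt and 672 and 556 in Btg4tm libraries. Of the 50-base stretches of the Rab7 transcript, 14.5% also occur in other transcripts. Rab11a was at 305 and 306 in GV, and every other library held between 400 and 416. Rab38 stood at 426 and 395 in GV, 272 and 275 in MII, 284 and 300.4 in Btg4wt and 424 and 421 in Btg4tm libraries. GV and Btg4tm oocytes were thus the high groups for Rab38 and, less clearly, for Rab7, while the low Rab11a libraries were those of GV oocytes. Rab2a was at 220.5 and 193 in GV and between 311 and 329 elsewhere. Rab1b was at 152 and 152 in GV, 262 and 272 in MII, 319 and 439 in Btg4wt and 249 and 365 in Btg4tm libraries, and its replicates lay far apart after injection.

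Low members included Rab24 (autophagosome), Rab28, Rab36 and Rab40c, all under 2 scaled TPM in every library. Rab24 passed the filter only through the Btg4tm libraries (1.44 and 1.60), and was under 1 in every other library. Of its exon bases, 62.4% are shared with Prelid1. Rab23, a brake on Hedgehog signalling at the cilium, was steady at 4.67 to 6.93. The heat map of levels shows the range from Rab7 down to Rab44.

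**Figure D1:**
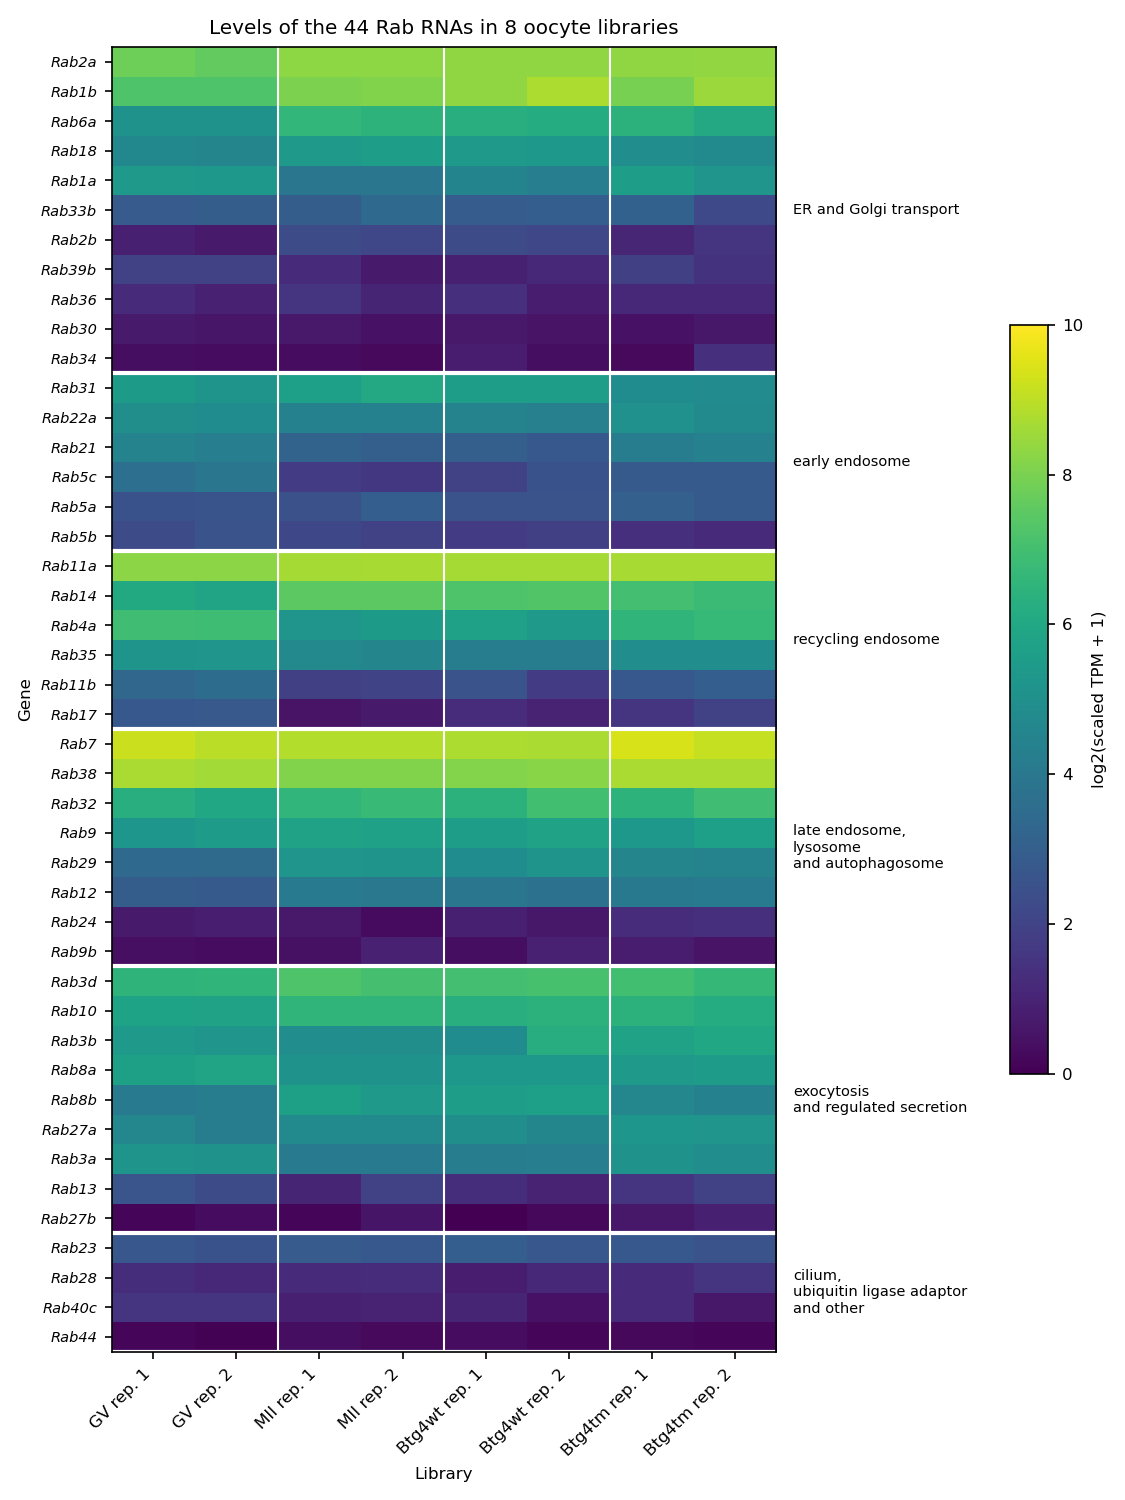
Levels of the 44 Rab RNAs (rows, grouped by membrane or process and sorted by mean level) in the 8 libraries (columns), as log2(scaled TPM + 1), with white lines between groups. Rab7, Rab11a, Rab38, Rab2a and Rab1b are the bright rows in every library, and 5 of the 44 stayed below the filter on low values.

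The first comparison asked which Rab RNAs differ between GV and MII oocytes. Relative to the bulk of the genes, 8 of the 39 tested fell in MII (Rab17, Rab5c, Rab4a, Rab11b, Rab1a, Rab21, Rab3a and Rab13) and 6 rose (Rab29, Rab14, Rab6a, Rab8b, Rab2b and Rab12), of which all but Rab2b lay below 0 when libraries were scaled to mitochondrially encoded RNA instead. A call needed an adjusted p under 0.05 (limma on log2(scaled TPM + 1), Benjamini-Hochberg over 13968 genes) and an absolute log2 fold change over 1. The members called were 20.5% lower and 15.4% higher, beside 24.0% lower and 12.5% higher among all genes tested, so both shares lay near the background. Other scalings gave 9 lower and 6 higher (TPM as deposited), 5 and 7 (quantile normalization) and 32 and 0 (mitochondrial RNA). Of all 13968 genes, the same scalings gave 3699 lower and 1145 higher, 2711 and 3102, and 11403 and 7. With no minimum fold, 13 members were lower and 13 higher, that is 33.3% each, beside 32.8% and 29.8% of all genes. Both MII libraries lay above both GV libraries for 18 of the 39 and below them for 18, beside 41.1% and 41.6% of all genes. The median log2 fold change was 0.17 over the Rab RNAs and -0.00 over all genes, and the Rab median was 0.039 without MII replicate 1 and -0.060 without MII replicate 2. The median size, without sign, was 0.62 for Rab RNAs and 0.78 for all genes.

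TPM are shares of a library, so directions hold only relative to a scaling. Scaling to mitochondrially encoded RNA moved the median of all genes to -1.74 in this comparison. On that scale, the log2 fold changes were -0.32 for Rab29, -0.68 for Rab14, -0.75 for Rab6a, -0.75 for Rab8b, -0.84 for Rab12 and 0.01 for Rab2b. Each of the 6 lay above the median gene there, by 0.90 (Rab12) to 1.76 (Rab2b), and each of the 8 that fell lay below it. The mitochondrial share of TPM was itself 0.625% to 0.651% in GV and 2.60% to 2.71% in MII libraries.

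Among 9 tested RNAs of endoplasmic reticulum and Golgi transport, 1 fell and 2 rose. Rab1a, which with Rab1b directs vesicles from the endoplasmic reticulum to the Golgi, was at 40.5 and 39.5 scaled TPM in GV and 14.0 and 14.4 in MII libraries. Both MII libraries lay far below the GV level, and it fell with a log2 fold change -1.43 ± 0.16 (SE), adjusted p = 0.0001 by limma. Rab6a, which acts in transport back from the Golgi, was at 34.1 and 33.2 in GV and 97.1 and 88.1 in MII libraries. The 2 groups did not overlap, and relative to the bulk of genes it rose, with a log2 fold change 1.43 ± 0.14 (SE), adjusted p = 5.2e-05 (limma). Rab2b, a low relative of Rab2a, was at 0.845 and 0.672 in GV and 3.83 and 3.32 in MII libraries. All GV values were below 1 and all MII values above 3, with a log2 fold change 1.38 ± 0.23 (SE), adjusted p = 0.00097 (limma).

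Some of these reads cannot be assigned without strand. Of the exon bases of Rab2b, 64.0% are shared with other genes (Gm43766 and Tox4), and of Rab6a 19.0% (Mrpl48). The level of Gm43766 was not examined. Tox4 itself stood at 4.35 scaled TPM in GV and 3.41 in MII on average, with a log2 fold change of -0.28 (adjusted p = 0.23, limma). Smaller differences under the p threshold were 0.89 for Rab18 (lipid droplets and endoplasmic reticulum), 0.81 for Rab1b, 0.59 for Rab2a and -0.96 for Rab39b on the log2 scale.

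Early endosomal RNAs held 2 of 6 that fell and none that rose. Rab5c, a Rab5 isoform that drives fusion of early endosomes, was at 11.4 and 14.2 scaled TPM in GV and 2.47 and 2.08 in MII libraries. The lower GV library was still over 4 times the higher MII library, with a log2 fold change -2.07 ± 0.24 (SE), adjusted p = 0.00012 (limma). Its relatives differed less, at 0.17 (adjusted p = 0.52) for Rab5a and -0.38 (adjusted p = 0.15) for Rab5b (limma). Rab21, which acts in the endocytosis of integrins, was at 21.0 and 18.3 in GV and 8.10 and 7.25 in MII libraries. It fell with a log2 fold change -1.25 ± 0.18 (SE), adjusted p = 0.00037 (limma), although under quantile normalization its log2 fold change of -0.96 missed the minimum fold. Rab22a (-0.51) and Rab31 (0.53) passed the p threshold in opposite directions at less than the minimum fold.

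Of the 6 recycling endosome RNAs, 3 fell and 1 rose. Rab17, known for transcytosis in epithelia, went from 5.74 and 5.85 scaled TPM in GV to 0.453 and 0.631 in MII libraries. It was under the filter level of 1 TPM in both MII libraries, and it fell with a log2 fold change -2.14 ± 0.23 (SE), adjusted p = 8.8e-05 (limma). This was the lowest value of the 39, but Rab5c was lower without GV replicate 1 (-2.22 against -2.15) or MII replicate 1 (-2.16 against -2.06), and on the mitochondrial scale Rab5c (-3.81), Rab4a (-3.76) and Rab1a (-3.53) were lower than Rab17 (-3.46). Rab4a, which returns receptors quickly to the cell surface, was at 122 and 118 in GV and 36.4 and 42.1 in MII libraries. Here the groups were far apart at a much higher level, with a log2 fold change -1.59 ± 0.14 (SE), adjusted p = 2.4e-05 (limma).

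Rab11b was at 8.75 and 10.6 scaled TPM in GV and 2.72 and 3.13 in MII libraries, and it fell (log2 fold change -1.44 ± 0.27 (SE), adjusted p = 0.0019, limma). Rab14, which travels between Golgi and endosomes, was at 67.1 and 55.9 in GV and 179 and 176 in MII libraries. It rose relative to the bulk of genes, though not on the mitochondrial scale, with a log2 fold change 1.52 ± 0.12 (SE), adjusted p = 1.9e-05 (limma), and was the sixth most abundant Rab RNA over all libraries. Rab11a (0.40) and Rab35 (-0.58), which also acts in cytokinesis, passed the p threshold only.

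Late endosomal and lysosomal RNAs held 2 of 7 that rose and none that fell. Rab29, a partner of the kinase LRRK2, was at 9.58 and 9.84 scaled TPM in GV and 36.5 and 35.0 in MII libraries. Its 2 MII libraries lay close together and far above GV. Relative to the bulk of genes its log2 fold change, 1.78 ± 0.14 (SE), was the highest among the 39 tested (adjusted p = 1.9e-05, limma), but it was -0.32 on the mitochondrial scale. Rab2b was higher than Rab29 on that scale (0.01), and also with a pseudocount of 0.1 in place of 1 (2.10 against 1.87). Rab12, which directs the transferrin receptor to degradation, was at 6.67 and 6.04 in GV and 16.2 and 14.9 in MII libraries (log2 fold change 1.17 ± 0.15 (SE), adjusted p = 0.00025, limma). Rab38 differed by -0.58 (adjusted p = 0.00062) and Rab7 by -0.25 (adjusted p = 0.1), both by limma.

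Exocytic and secretory RNAs held 2 of 8 that fell and 1 that rose. Rab3a was at 35.3 and 33.8 scaled TPM in GV and 15.9 and 16.1 in MII libraries. Both groups were tight, and it fell with a log2 fold change -1.07 ± 0.13 (SE), adjusted p = 0.00016 (limma), while quantile normalization gave -0.83. Rab8b, which carries cargo to the plasma membrane, was at 15.8 and 18.0 in GV and 51.0 and 41.0 in MII libraries. Relative to the bulk of genes it rose, with a log2 fold change 1.39 ± 0.15 (SE), adjusted p = 9.6e-05 (limma).

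Rab13, a tight junction Rab, was at 5.29 and 3.99 scaled TPM in GV and 1.05 and 2.80 in MII libraries. Its 2 MII libraries differed widely, and its call (log2 fold change -1.01 ± 0.33 (SE), adjusted p = 0.026, limma) rested on single libraries. The call was lost without GV replicate 1 (-0.84), GV replicate 2 (-1.17) or MII replicate 1 (-0.56), and under quantile normalization (-0.68). Rab10 (0.76), Rab3d (0.62) and Rab8a (-0.64) passed the p threshold at less than the minimum fold. Rab27a gave 0.36 (adjusted p = 0.1) by limma, and none of the 3 tested cilium, adaptor and other RNAs was called.

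**Figure D2:**
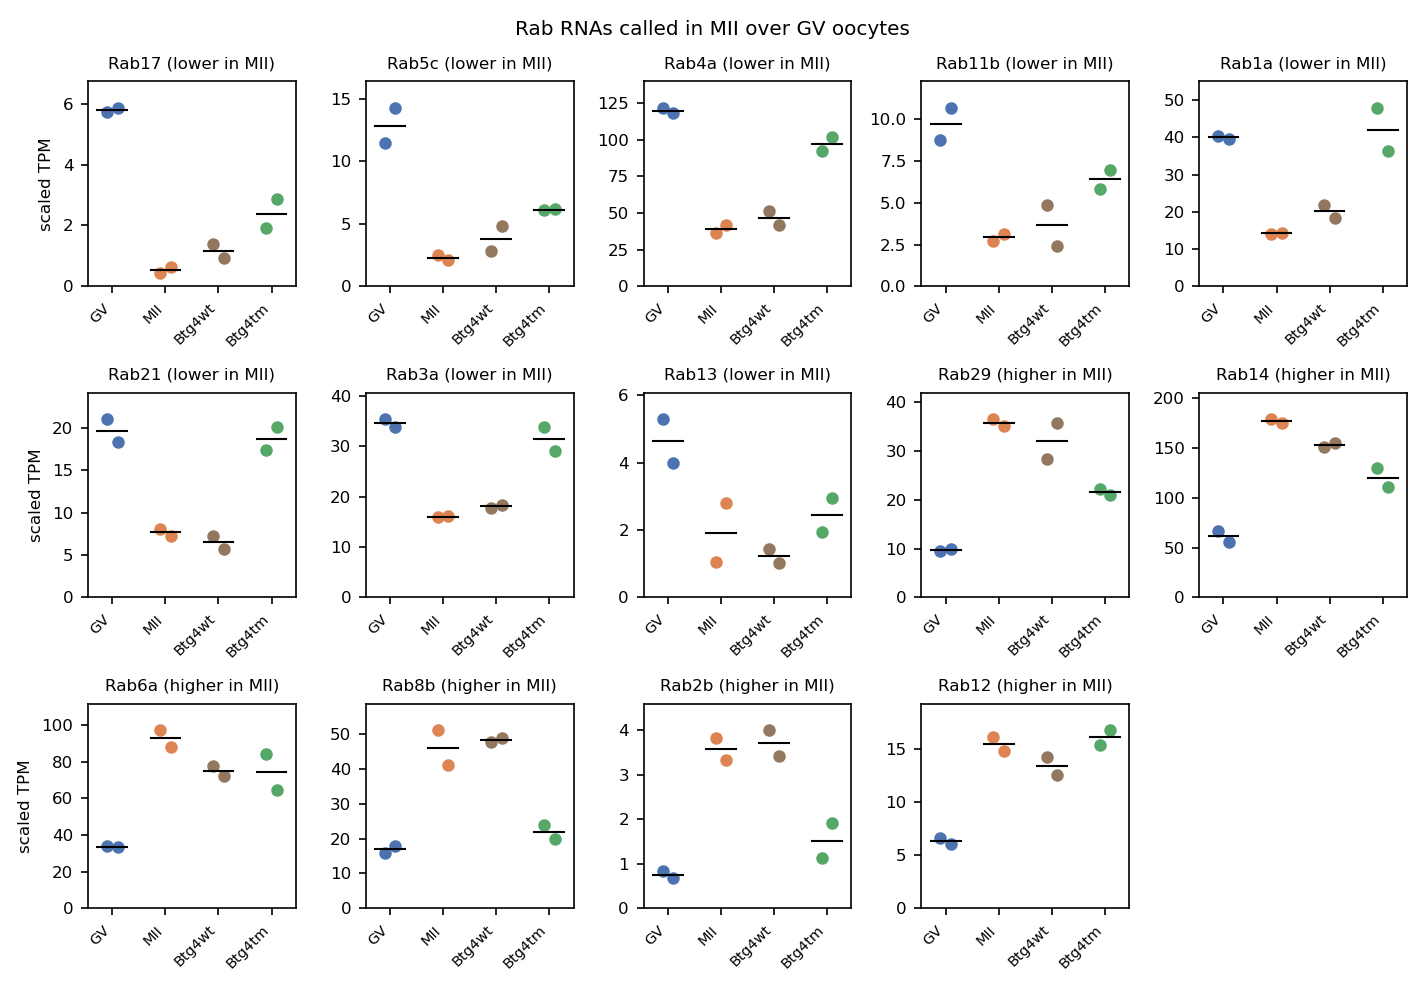
The 14 Rab RNAs called in MII over GV, in scaled TPM (vertical axis, from 0) for each library (points) of the 4 groups, with bars at the group means. The first 8 panels show RNAs lower in MII and the last 6 those higher in MII relative to the bulk of genes, of which all but Rab2b lay below 0 on the mitochondrial scale. The Btg4tm points of Rab1a, Rab21, Rab3a and Rab8b lie near those of GV.

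The second comparison asked how MII oocytes with mutant BTG4 differed from those with wild-type BTG4. Rab21, Rab4a and Rab1a were higher in Btg4tm and Rab8b was lower, so 3 of 39 rose and 1 fell. These were 7.69% and 2.56% of the Rab RNAs, beside 18.1% higher and 7.94% lower among all genes tested. Without Btg4wt replicate 2 these counts were 1 and 2. With no minimum fold, 9 Rab RNAs were higher and 6 lower (23.1% and 15.4%, beside 26.2% and 23.3% of all genes). Each share lay below the background under either rule. Both Btg4tm libraries lay above both Btg4wt libraries for 20 of the 39 and below them for 8, beside 37.6% and 36.7% of all genes. The 20 include Rab24, which passed the filter only through Btg4tm and so was favoured to be counted there. The median log2 fold change was 0.19 over the Rab RNAs and 0.01 over all genes. Quantile normalization gave 1 higher and 2 lower, beside 2081 and 1778 of all 13968 genes. Mitochondrial scaling, which moved the median of all genes to 0.88, gave 24 higher and 0 lower, beside 6089 and 69.

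Of the 4 genes called, Rab21 lies at chr10:115287084-115315594, minus strand, Rab4a at chr8:123805985-123835287, plus strand, Rab1a at chr11:20201432-20226856, plus strand and Rab8b at chr9:66843664-66919687, minus strand (GRCm38, GENCODE M21). Rab21 was at 7.25 and 5.70 scaled TPM in Btg4wt and 17.3 and 20.0 in Btg4tm libraries. Both Btg4tm libraries were above 2 times the higher Btg4wt library, and the rise (log2 fold change 1.40 ± 0.18 (SE), adjusted p = 0.0003, limma) was the largest among the 39 tested. Rab4a was at 51.4 and 41.6 in Btg4wt and 92.3 and 102 in Btg4tm libraries. The groups did not overlap, and it rose with a log2 fold change 1.05 ± 0.14 (SE), adjusted p = 0.00035 (limma), which fell under the minimum fold without Btg4wt replicate 2 (0.90), without Btg4tm replicate 2 (0.98) or under quantile normalization (0.81).

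Rab1a was at 22.0 and 18.5 scaled TPM in Btg4wt and 47.8 and 36.4 in Btg4tm libraries. The groups did not overlap, and its call (log2 fold change 1.01 ± 0.16 (SE), adjusted p = 0.001, limma) lay at the edge of the minimum fold. It missed that fold in the TPM as deposited (0.998), under quantile normalization (0.81), without Btg4wt replicate 2 (0.90) and without Btg4tm replicate 1 (0.82). Its adjusted p stayed under 0.05 in each.

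Rab8b was at 47.6 and 48.8 scaled TPM in Btg4wt and 23.8 and 20.0 in Btg4tm libraries. Both Btg4tm values were near the GV level, and the fall had a log2 fold change -1.11 ± 0.15 (SE), adjusted p = 0.00052 (limma). It gave -0.99 without Btg4tm replicate 2 and -0.05 on the mitochondrial scale, where the median gene was at 0.88.

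Below the minimum fold, Rab3a (0.76), Rab35 (0.69), Rab17 (0.64), Rab38 (0.53), Rab7 (0.50) and Rab22a (0.48) had positive log2 fold changes at an adjusted p under 0.05 (limma). Rab2b (-0.92), Rab31 (-0.73), Rab18 (-0.55), Rab29 (-0.54) and Rab14 (-0.35) had negative ones. Rab7 and Rab38 are the abundant members of this set. Rab3b, a secretory Rab, was at 28.2 and 73.5 scaled TPM in the 2 Btg4wt libraries, a wider gap than in any other group, and no difference was detectable with mutant BTG4 (0.32 (adjusted p = 0.49), limma).

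Most Rab RNAs had opposite signs in the 2 comparisons, which share no library. Of the 39 tested, 32 did (82.1%), as did 82.8% of all genes. Rab24, which passed the filter only through Btg4tm, is among the 32. All 8 that fell in MII had a positive log2 fold change in Btg4tm over Btg4wt, and 3 of them passed the call, beside 98.1% with a positive value and 70.0% called among the 3351 genes that fell. The size of the second difference as a share of the first had a median of 63.6% over these 8, beside 76.5% over those genes. It was 112% for Rab21, 71.5% for Rab3a, 70.9% for Rab1a and 66.1% for Rab4a, and 28.8% for Rab5c and 30.0% for Rab17. Rab5c and Rab17 had the smallest shares of the 8.

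Among the 6 that rose in MII relative to the bulk of genes, 5 had a negative log2 fold change with the mutant and 1 passed the call, beside 93.8% with a negative value and 26.5% called among the 1752 genes that rose. The median share was 26.8%, beside 52.1% over those genes. Rab8b (79.8%) and Rab2b (66.6%) had the largest shares. Rab6a (1.78%) hardly differed between Btg4wt and Btg4tm, and Rab12 had the same sign in both comparisons (0.25 (adjusted p = 0.21) in Btg4tm over Btg4wt, limma). On the mitochondrial scale 5 of these 6 lay below 0 and Rab2b was at 0.01 (adjusted p = 0.96, limma), so 0 of them were called higher in MII.

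**Figure D3:**
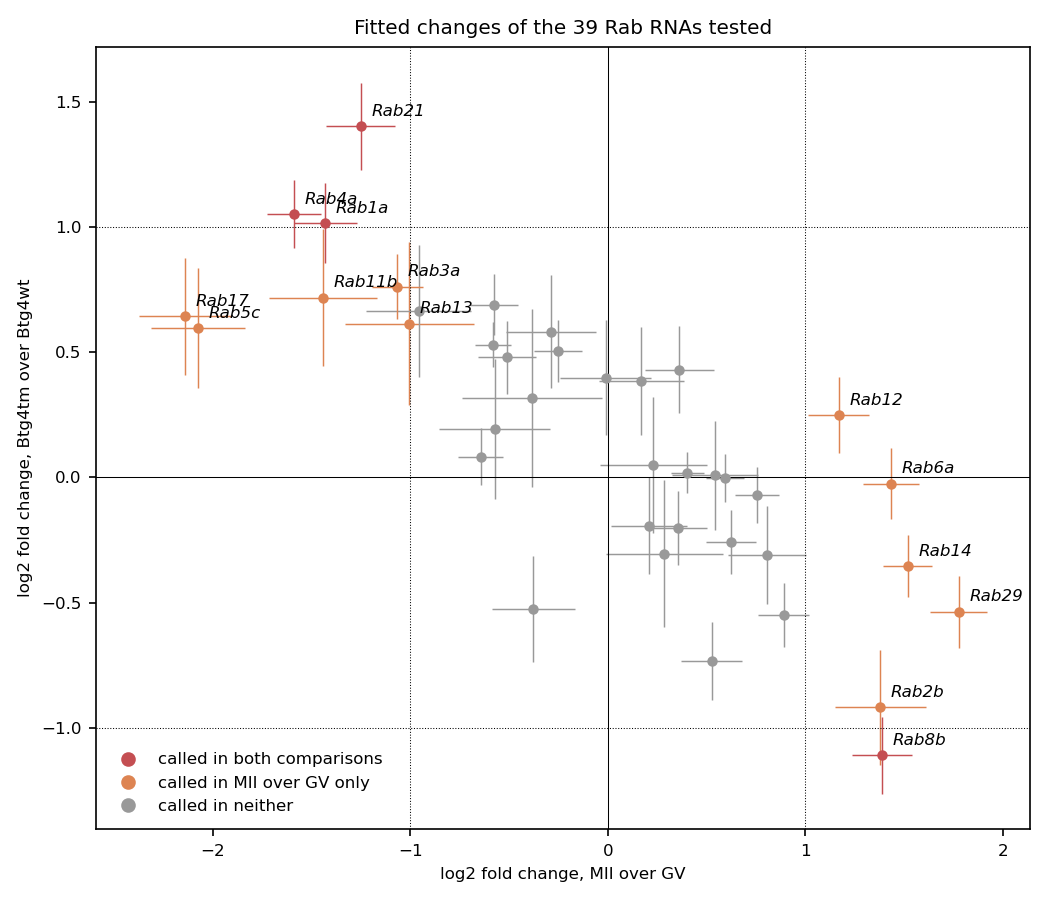
Log2 fold change of each of the 39 tested Rab RNAs in MII over GV (horizontal axis) and in Btg4tm over Btg4wt (vertical axis), with standard errors as bars and dotted lines at the minimum fold of the calls. Of the 39, 32 lie in the upper left or lower right area, and Rab21, Rab4a, Rab1a and Rab8b are called in both comparisons; positions are relative to the bulk of genes, and on the mitochondrial scale the medians of all genes move to -1.74 and 0.88.

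The third comparison set Btg4tm MII oocytes against GV oocytes, and shares its GV libraries with the first and its Btg4tm libraries with the second. Rab5b and Rab17 were lower in Btg4tm than in GV, and Rab12, Rab6a and Rab29 were higher. Both lower calls were lost without GV replicate 2, and 1 of them without GV replicate 1 or either Btg4tm library. The 2 and 3 of 39 were 5.13% and 7.69% of the Rab RNAs, beside 1.02% lower and 1.02% higher among all genes tested. With no minimum fold, 3 were lower (7.69%, beside 3.73% of all genes) and 9 higher (23.1%, beside 7.66%). Both Btg4tm libraries lay above both GV libraries for 17 of the 39 and below them for 11, beside 25.3% and 34.2% of all genes. Rab24, which passed the filter only through Btg4tm, is among the 17. On the mitochondrial scale the median of all genes moved to -0.64, and 7 Rab RNAs were called lower and 0 higher, beside 2972 and 38 of all 13968 genes. The TPM as deposited gave 3 lower and 1 higher, beside 287 and 80. Quantile normalization gave 0 lower and 3 higher, beside 99 and 158.

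Rab5b was at 3.84 and 4.88 scaled TPM in GV, 3.44 and 2.80 in MII, 2.44 and 2.71 in Btg4wt and 1.65 and 1.33 in Btg4tm libraries. The Btg4tm libraries were the lowest of the 8, below Btg4wt and MII as well. Its call (log2 fold change -1.10 ± 0.21 (SE), adjusted p = 0.017, limma) was lost without GV replicate 2 (-0.96), without Btg4tm replicate 2 (-1.01, adjusted p = 0.063), under quantile normalization (-0.97) and in a limma fit to the 4 libraries alone (adjusted p = 0.054). Of the 50-base stretches of the Rab5b transcript, 13.0% also occur in other transcripts.

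Rab17 stayed below GV, at 1.90 and 2.88 scaled TPM in Btg4tm against 5.74 and 5.85 in GV libraries (log2 fold change -1.02 ± 0.23 (SE), adjusted p = 0.031, limma). That call was lost under 6 of 16 alternatives other than mitochondrial scaling, among them each GV replicate left out (adjusted p = 0.11 without replicate 1 and 0.15 without replicate 2, limma) and Btg4tm replicate 1 left out (-0.81). Rab12 was at 15.5 and 16.8 in Btg4tm libraries and above both GV values (log2 fold change 1.22 ± 0.15 (SE), adjusted p = 0.0052, limma). Rab6a was at 84.2 and 64.3 (log2 fold change 1.11 ± 0.14 (SE), adjusted p = 0.0052, limma) and Rab29 at 22.2 and 21.0 (log2 fold change 1.08 ± 0.14 (SE), adjusted p = 0.0056, limma). Both missed the minimum fold in the TPM as deposited (0.95 and 0.93), and Rab6a without Btg4tm replicate 1 (0.91). Rab14 (0.96), Rab1b (0.98), Rab27a (0.78) and Rab2a (0.65) were among those with an adjusted p under 0.05 at less than the minimum fold.

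The fourth comparison set injected Btg4wt against uninjected MII oocytes and shares its libraries with the first and second. None of the 39 Rab RNAs passed an adjusted p of 0.05 in limma (0.0% lower and 0.0% higher among all genes tested). At an unadjusted p under 0.05, 1 Rab RNA was lower and 2 were higher, beside 710 and 945 of all 13968 genes. Both Btg4wt libraries lay above both MII libraries for 8 of the 39 and below them for 10, beside 24.1% and 20.8% of all genes. The log2 fold changes ran from -0.40 for Rab35 to 0.63 for Rab3b, and the median was -0.01.

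Ratios between members that share a number shifted at maturation, some away from parity and some towards it. Rab1a was at 0.263 of the Rab1b level in GV, 0.0533 in MII, 0.0533 in Btg4wt and 0.137 in Btg4tm oocytes, as ratios of mean scaled TPM, which are per transcript length. Among pairs with both members at 10 scaled TPM or more on average, it had the largest gap between members in both main comparisons, -2.24 in MII over GV and 1.32 in Btg4tm over Btg4wt on the log2 scale. It was chosen for that gap, so no test is given. Rab8a and Rab8b changed order, as Rab8a was at 3.16 times Rab8b in GV, 0.735 in MII, 0.820 in Btg4wt and 1.92 in Btg4tm oocytes. Rab8a itself was between 33.6 and 56.3 scaled TPM in all 8 libraries.

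Rab11a exceeded Rab11b by 31.5 times in GV, 138 in MII, 112 in Btg4wt and 64.5 in Btg4tm oocytes. A limit is that 9.75% of the 50-base stretches of the Rab11b transcript also occur in other transcripts. Rab5a was at 0.383 of Rab5c in GV and 2.53 times Rab5c in MII oocytes. That ratio was 1.28 in Btg4wt and 1.09 in Btg4tm oocytes, so it did not return to the GV side. Rab2a was at 273 times Rab2b in GV and 87.3 times in MII oocytes, and Rab5b went from 0.340 to 1.37 of Rab5c. Rab3a was at 0.378 of Rab3d in GV, 0.113 in MII, 0.136 in Btg4wt and 0.283 in Btg4tm oocytes. In each of the pairs Rab1a with Rab1b, Rab3a with Rab3d and Rab11a with Rab11b, the more abundant member was the same in all 4 groups.

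**Figure D4:**
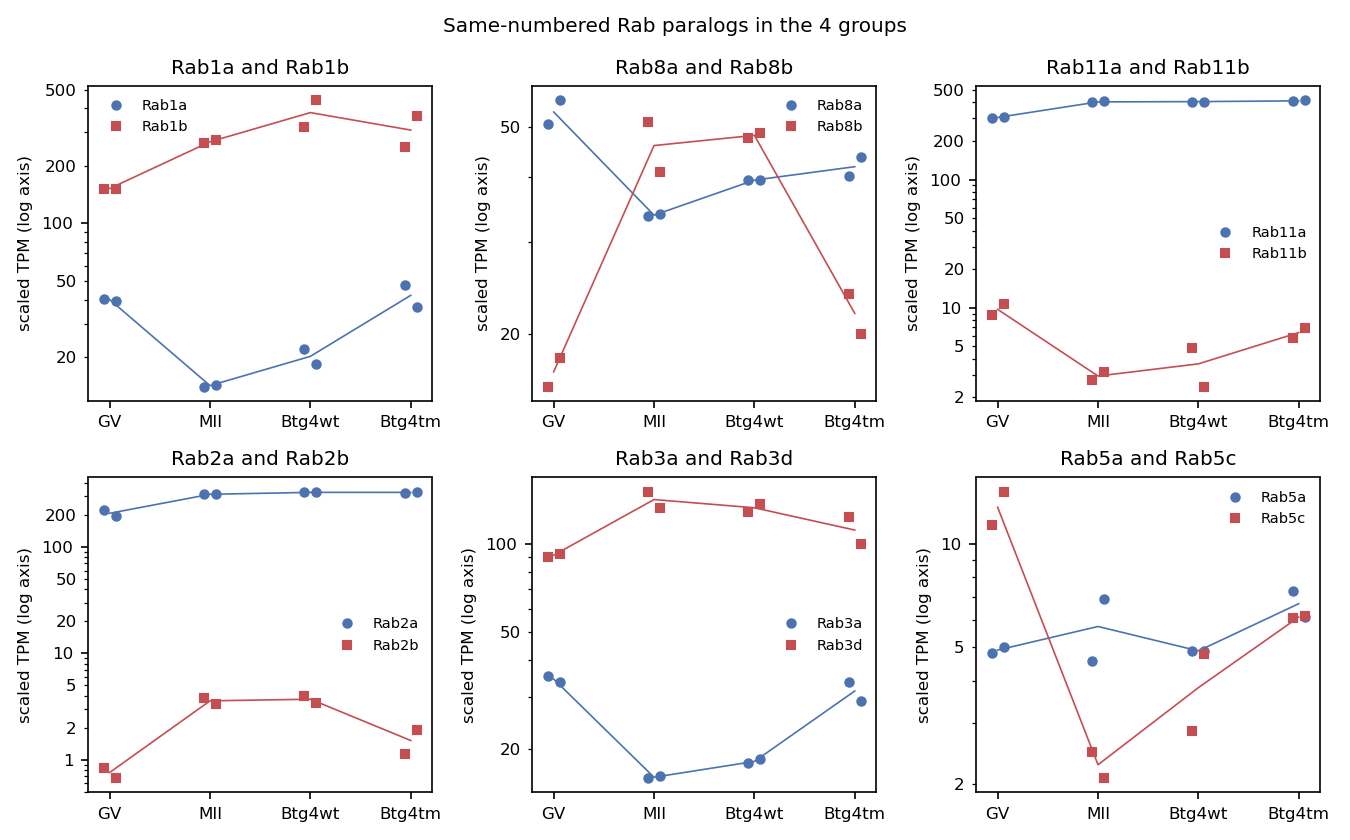
Scaled TPM (log axis) of 6 pairs of same-numbered Rab RNAs in each library (points) of the 4 groups, with lines joining the group means. The lines of Rab8a and Rab8b and of Rab5a and Rab5c cross between GV and MII, while those of the other 4 pairs stay apart.

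Dormant maternal mRNAs in oocytes are known to lengthen their poly(A) tails during maturation through the cytoplasmic polyadenylation element, a U-rich motif bound by CPEB1 near the end of the 3′ UTR. The libraries were primed with oligo(dT), so a longer tail and more RNA cannot be told apart in them. The element (TTTTAT or TTTTAAT, sense strand only) was looked for in the last 100 bases of 1 annotated coding transcript per gene. It was present in 7 of the 39 tested Rab RNAs (17.9%) and in 2092 of 10394 coding genes tested (20.1%). The 7 were Rab2b, Rab5a, Rab6a, Rab8b, Rab9, Rab11a and Rab18.

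The ends of Rab8b, Rab6a and Rab2b, which hold the element and were called higher in MII relative to the bulk of genes, are shown beside those of Rab8a, Rab1a and Rab4a, which hold only a poly(A) signal there. Capitals mark the element in the first 3 sites and the signal in the last 3. All are 3′ UTR sequence of GENCODE M21 on GRCm38, written 5′ to 3′ on the strand of the gene.
Rab8b, chr9:66843710-66843739, minus strand: tgaaTTTTATtccaggtgaacttttttttt
Rab6a, chr7:100641215-100641244, plus strand: tttgTTTTATtttgacatggcatgtcctga
Rab2b, chr14:52261790-52261819, minus strand: taatTTTTATtgttaatgaccgttttacta
Rab8a, chr8:72183874-72183903, plus strand: ccacatgctgacATTAAAggtgagtgctat
Rab1a, chr11:20226816-20226845, plus strand: tgagaatttcacAATAAAatcatagtttac
Rab4a, chr8:123835250-123835279, plus strand: ttaacacctggaAATAAAgtggaacggagt
The element of Rab8b ends 66 bases before the annotated end of the transcript, that of Rab6a 44 and that of Rab2b 51. Farther from the end, the 3′ UTR of Rab8a held the element 4 times and that of Rab1a 3 times, while that of Rab4a held none.

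All 7 Rab RNAs with the element had a log2 fold change above 0 in MII over GV, with a median of 0.89. Of the 32 without it in this window, 13 were above 0 and the median was -0.33. Among all coding genes, 68.5% of those with the element were above 0 (median 0.50) and 48.7% of those without it (median -0.04). In Btg4tm over Btg4wt the order was turned, with a median of -0.20 for the 7 and 0.36 for the 32, beside -0.21 and 0.00 for all coding genes. Not every riser held the element, as Rab29, Rab14 and Rab12 had none in this window. Elsewhere in the 3′ UTR, Rab14 held it 4 times and Rab12 1 time, and Rab29 did not hold it. The split therefore describes the last 100 bases and not the whole 3′ UTR. The 7 are a description with no test. For Rab11a, Rab9 and Rab18 only some annotated coding transcripts hold the element, as do 2 of the 5 of Rab36, which is counted among the 32, and the ends used in oocytes were not measured.

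**Figure D5:**
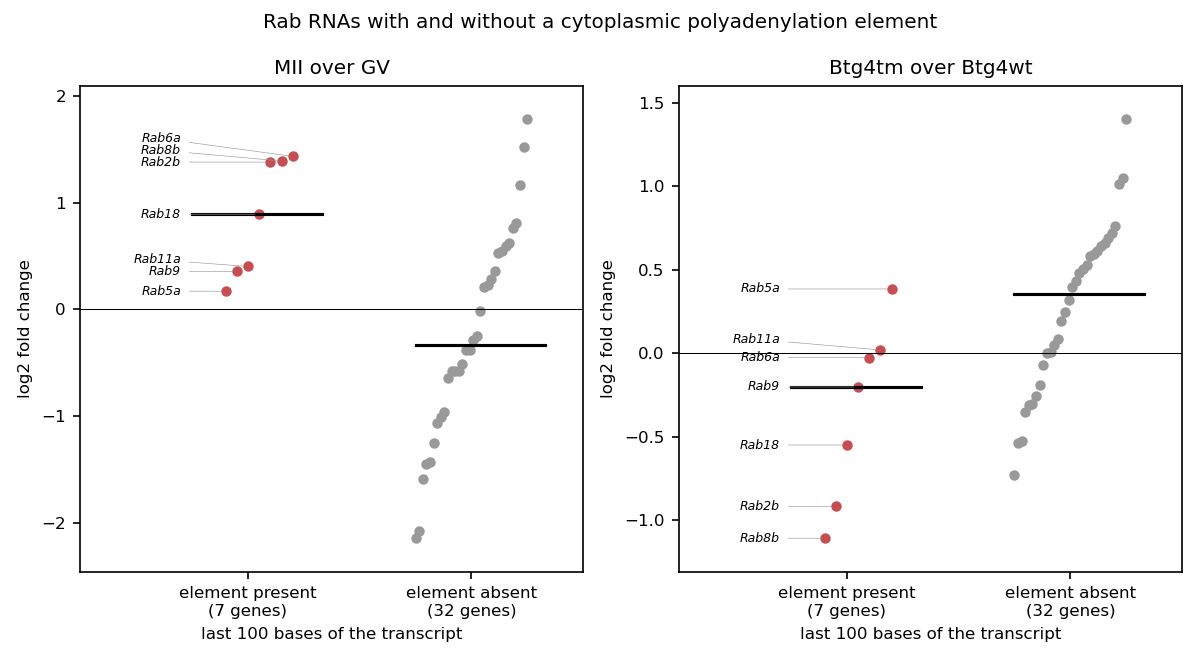
Log2 fold change (vertical axes) of the 39 tested Rab RNAs in MII over GV (left) and Btg4tm over Btg4wt (right), split by whether the last 100 bases of the transcript hold a cytoplasmic polyadenylation element, with black bars at the medians. All 7 RNAs with the element lie above 0 on the left relative to the bulk of genes (the median gene is at -1.74 on the mitochondrial scale), and 2 of the 7 on the right.

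Length and base composition were also compared. The median 3′ UTR of the Rab transcripts was 1951 bases, beside 1015 over all coding genes tested. Across the 39, the Spearman rank correlation of the MII over GV change was 0.13 with transcript length and -0.31 with GC content, beside 0.38 and -0.31 across all coding genes. For Btg4tm over Btg4wt it was -0.26 with length, beside -0.49. These are descriptions across genes, which share the libraries and are not independent replicates.

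The RNAs of Rab GEFs ranged more widely, with log2 fold changes of -3.89 to 2.41 in MII over GV, beside -2.14 to 1.78 among the Rab RNAs. Those of GAPs ran from -2.48 to 1.62, effectors from -3.05 to 1.54 and the prenylation and membrane cycle from -2.32 to 1.72. These had lower minima than the Rab RNAs, but their maxima were lower too. All rises named here are relative to the bulk of genes. On the mitochondrial scale 6 of the 7 GEF RNAs that rose, 3 of the 3 GAP RNAs and 8 of the 9 effector RNAs lay below 0, with Ric1 (0.27) and Unc13d (0.35), a Rab27 effector, as the exceptions. In the prenylation and membrane cycle, 2 of 9 tested RNAs fell in MII and 1 rose (22.2% and 11.1%, beside 24.0% and 12.5% of all genes). Rabggta, a subunit of the enzyme that attaches the lipid anchor to Rab proteins, had a log2 fold change of -2.32 (adjusted p = 4.1e-05) and Gdi2, which extracts Rab proteins from membranes, -1.03 (adjusted p = 0.00019) in MII over GV. Arl6ip5 had 1.72 (adjusted p = 0.013) by limma. With mutant BTG4, Rabggta was the 1 RNA of the 9 that passed (11.1% higher, beside 18.1% of all genes), at 1.48 (adjusted p = 0.00076) by limma.

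Of 32 tested GEF RNAs, 7 fell and 7 rose in MII (21.9% each, beside 24.0% lower and 12.5% higher among all genes). The falls were led by Trappc2l (-3.89 (adjusted p = 2.3e-05)) and Trappc5 (-3.34 (adjusted p = 7.2e-06)), subunits of the TRAPP complex, and Mon1a (-3.38 (adjusted p = 3.4e-05)), part of the exchange factor for Rab7. The rises were led by Ric1 (2.41 (adjusted p = 1.8e-06)), part of an exchange factor for Rab6, and by the TRAPP subunits Trappc2 (1.46 (adjusted p = 9.2e-06)) and Trappc6a (1.18 (adjusted p = 0.00023)), all by limma. In Btg4tm over Btg4wt 3 were lower and 6 higher (9.38% and 18.8%, beside 7.94% and 18.1% of all genes), with Trappc2l at 3.88 (adjusted p = 3.9e-05) and Mon1a at 2.81 (adjusted p = 0.00015) among the higher and Dennd4c at -1.63 (adjusted p = 0.00011) among the lower (limma). Between Btg4tm and GV oocytes, Ric1 was the 1 GEF RNA past both the p threshold and the minimum fold, at 1.82 (adjusted p = 0.002) by limma. That was 3.12% higher, beside 1.02% of all genes. With no minimum fold 1 was lower and 4 were higher (3.12% and 12.5%, beside 3.73% and 7.66% of all genes).

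Of 30 tested GAP RNAs, 5 fell and 3 rose in MII (16.7% and 10%, beside 24.0% and 12.5% of all genes). Tbc1d10a (-2.48 (adjusted p = 0.0003)) and Tbc1d7 (-2.42 (adjusted p = 4.5e-05)) were among those that fell, and Evi5 (1.62 (adjusted p = 2.4e-05)), Tbc1d15 (1.28 (adjusted p = 1.2e-05)) and Rab3gap1 (1.13 (adjusted p = 0.0001)), a subunit of the GAP for Rab3, rose (limma). With mutant BTG4, 4 GAP RNAs were lower and 3 higher (13.3% and 10%, beside 7.94% and 18.1% of all genes). Rab3gap1 had the lowest value, -1.64 (adjusted p = 2.5e-05) by limma. Of 42 tested effector RNAs, 7 fell and 9 rose in MII (16.7% and 21.4%, beside 24.0% and 12.5% of all genes). Rilpl1 (-3.05 (adjusted p = 6e-05)) and Rabepk (-2.30 (adjusted p = 7.9e-05)), a Rab9 effector, fell, whereas Rims1 (1.54 (adjusted p = 1.4e-05)), a Rab3 effector, and Eea1 (1.27 (adjusted p = 3e-05)), the tether of early endosomes, rose (limma). With mutant BTG4, 8 effector RNAs were lower and 5 higher (19.0% and 11.9%, beside 7.94% and 18.1% of all genes).

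The median log2 fold change in Btg4tm over Btg4wt was -0.29 for GEFs, -0.52 for GAPs and -0.51 for effectors, against 0.19 for the Rab RNAs. No test of these differences was made. In other small GTPase families, 8 of 25 Arf and Arl RNAs fell and 5 rose in MII (32% and 20%), and 3 of 21 Ras RNAs fell and 8 rose (14.3% and 38.1%), beside 24.0% and 12.5% of all genes. Their lowest log2 fold changes were -3.48 and -3.19, below the -2.14 of Rab17.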

How the data were processed

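Smart-seq2 libraries were primed with oligo(dT). Per the labels and the study's methods, the authors trimmed reads with Trim Galore 0.6.10, aligned them to GRCm38 with HISAT2 2.2.0, counted exonic reads without strand with featureCounts 2.0.6 and deposited TPM per gene symbol. TPM keep no depth, so counting error is unknown and precision rests on 2 libraries per group. The labels do not say that replicates came from separate collections, so p-values measure only the spread between these samples. The protocol states 3 samples per group; the 2 per group at hand were analysed. Groups and replicate numbers came from the sample titles. The tables of uninjected and injected oocytes list different genes, and the 15962 in both were used.

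The deposited TPM were scaled by the median of ratios (factors 0.948 to 1.11) and fitted as log2(scaled TPM + 1) with limma 3.58.1 in R 4.3.3 (1 coefficient per group, all 8 libraries, eBayes with trend) over the 13968 genes that reached 1 TPM in 2 or more libraries. Fold changes are on this log scale, which understates the change of low genes. Calls needed a Benjamini-Hochberg adjusted p under 0.05 together with a log2 fold change beyond 1 in either direction. The study's own test was made for counts and could not be run on TPM. On simulated data for Btg4tm over Btg4wt across 13968 genes, 197 of 200 changed genes were called, with 3 unchanged genes called, and 0 calls without change. The changes set were log2 fold changes of 2 or 3 in either direction, in genes with a mean log2 level above 3. Recovery of changes near the minimum fold, or of changes in low genes, was therefore not measured.

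The members, role lists and tests were chosen with earlier results of these data known. Full statistics were given for called members (up to 10 per direction in the first 2 comparisons and 5 in the others) and for the 5 most abundant, and up to 3 called genes per direction of each list of Rab regulators. Alternatives were other scalings (TPM as deposited, quantile, mitochondrial), a pseudocount of 0.1, no filter or 5 TPM, only the 4 libraries compared, a replicate block, no trend, no minimum fold, an adjusted p of 0.01, and leaving out each library. Gene models, exon overlap and 50-base repeats were from GENCODE M21 on GRCm38, in which all 44 members matched by symbol; the authors' annotation release was later. The element was also sought in 10394 coding genes. Python 3.11.15, pandas 2.3.3, scipy 1.17.1 and matplotlib 3.10.9 were used for tables and plots. The protein and phosphoproteome data of the study were not used here.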

Additional observations from a re-analysis of the deposited data

How the results depend on the processing

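Counts of called Rab RNAs depended mainly on the scaling and the minimum fold. The counts over all genes under the other scalings are given with each comparison above. In MII over GV the 8 lower and 6 higher became 5 lower and 7 higher under quantile normalization, 32 lower and 0 higher under mitochondrial scaling, and 13 and 13 with no minimum fold. In Btg4tm over Btg4wt the 1 lower and 3 higher became 2 and 1 under quantile normalization, 0 and 24 under mitochondrial scaling, 2 lower with a pseudocount of 0.1, and 6 and 9 with no minimum fold. In Btg4tm over GV the 2 lower and 3 higher became 1 higher in the TPM as deposited, 0 lower under quantile normalization, 7 and 0 under mitochondrial scaling, 1 lower with a pseudocount of 0.1 or a filter at 5 TPM, 0 lower with the 4 libraries alone or an adjusted p of 0.01, and 9 higher with no minimum fold. On the mitochondrial scale the log2 fold changes of Rab29 (-0.32), Rab14 (-0.68), Rab6a (-0.75), Rab8b (-0.75) and Rab12 (-0.84) changed sign in MII over GV. None of these reached the minimum fold there, and for Rab29 no difference was detectable (adjusted p = 0.23, limma). The median of all genes was at -1.74 on that scale. The cause of these shifts was not tested.

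The median Rab log2 fold change was 0.17 in MII over GV, and 0.037 in the TPM as deposited, 0.43 under quantile normalization, -1.76 under mitochondrial scaling, 0.19 with a pseudocount of 0.1 and 0.29 with a filter at 5 TPM. In Btg4tm over Btg4wt the 0.19 became 0.041 (quantile), 1.10 (mitochondrial), 0.26 (pseudocount), 0.14 (no filter) and 0.083 (5 TPM). In Btg4tm over GV the 0.11 became -0.0014 (as deposited), 0.16 (quantile), -0.47 (mitochondrial), 0.16 (pseudocount) and 0.16 (5 TPM). In Btg4wt over MII the -0.01 became 0.40 (mitochondrial).

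Leaving out each library in turn gave 7 to 8 lower and 6 to 6 higher in MII over GV, 1 to 2 lower and 1 to 4 higher in Btg4tm over Btg4wt, 0 to 2 lower and 3 to 4 higher in Btg4tm over GV, and 0 to 0 in both directions in Btg4wt over MII, with the lone library of a group assumed to vary like the rest. The medians ran from -0.060 to 0.17, 0.17 to 0.24, 0.042 to 0.21 and -0.050 to -0.0057 in that order.

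Replicate numbers are shared labels only. Deviations of same-numbered libraries correlated at -0.02, 0.06, 0.04 and -0.05 in the 4 comparisons, and with the number as a replicate block the counts were 8 and 6, 1 and 3, 2 and 3, and 0 and 0, as without it.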

Other observations

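A further 5 Rab genes were listed only in the tables of uninjected or of injected oocytes and were not fitted. Rab25, a relative of Rab11 known from epithelia, was at 0.166 and 0 scaled TPM in the Btg4wt and at 4.54 and 5.79 in the Btg4tm libraries. Rab4b, a relative of Rab4a, was at 0.281 and 0.188 in Btg4wt and at 2.83 and 2.31 in Btg4tm libraries. Both Btg4tm libraries exceeded both Btg4wt libraries for each gene, which was not tested. Rab33a was at 1.39 and 0.671 in GV and at 0.260 and 0 in MII libraries. Rab6b and Rab7b were under 0.29 in all 4 libraries that list them.

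Genes with Rab-like names outside the family also differed. Rabl3, a Rab-like GTPase, was at 6.69 and 4.90 scaled TPM in GV, 0.378 and 0.592 in MII, 0.849 and 0.776 in Btg4wt and 3.71 and 6.30 in Btg4tm libraries (log2 fold change -2.19 in MII over GV, adjusted p = 0.00017, and 1.69 in Btg4tm over Btg4wt, adjusted p = 0.0011, by limma). Rab5if, a gene named for its interaction with Rab5, was at 49.2 and 54.3 in GV, 9.58 and 9.30 in MII, 8.59 and 8.43 in Btg4wt and 39.0 and 40.4 in Btg4tm libraries (-2.34, adjusted p = 2.5e-06, and 2.10, adjusted p = 7.1e-06, by limma). For both genes the GV and Btg4tm libraries were the high ones. Rabl2 was higher in MII than in GV relative to the bulk of genes (log2 fold change 1.41, adjusted p = 0.00011 by limma, but -0.66 on the mitochondrial scale), at 8.68 ± 0.936 and 24.7 ± 1.95 scaled TPM (mean ± SD, n = 2). Rabl6 gave 0.34 (adjusted p = 0.23, limma) in the same comparison.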
